A study of Mus musculus with 8 samples.

Results

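The lymphocyte miRNAs described here are mmu-miR-150-5p, mmu-miR-155-5p, mmu-miR-181a-5p, mmu-miR-181b-5p, mmu-miR-342-3p and mmu-miR-146a-5p, 6 of the 1881 mouse miRNAs on the array, taken by their names. They were measured in serum of 4 mice irradiated with 7 Gy of X-rays and of 4 non-irradiated mice (0 Gy), with 1 Agilent array per serum. All mice were male C57BL/6NJcl mice, 8 weeks old at irradiation, and the irradiated sera were taken at 72 h. The time of the non-irradiated sera on the arrays was not named. Serum is cell-free, so that fewer cells of a type and less RNA per cell cannot be told apart.

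These miRNAs are known for their roles in immune cells. miR-150 is abundant in mature B and T cells and represses the transcription factor Myb, and miR-155 is induced when lymphocytes and macrophages are activated. miR-181a is high in developing thymocytes, where it tunes the sensitivity of the T cell receptor, and miR-181b is made from the same transcripts. miR-342 is encoded within an intron of Evl, and miR-146a restrains NF-kappaB signalling through Traf6 and Irak1. None of them is restricted to lymphocytes.

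The mature sequences are printed to show which members share a seed and by which bases close relatives differ. RefSeq (GRCm38.p6) gave the mature sequence of 5 of the 6 members, and these carry 4 distinct seeds, since miR-181a-5p and miR-181b-5p share one. In the lines that follow, the seed (bases 2 to 8 from the 5′ end) is in capitals, and miR-146b-5p, miR-181c-5p, miR-181d-5p and miR-150-3p are added because their values are set beside those of the members.
mmu-miR-181a-5p: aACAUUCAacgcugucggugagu
mmu-miR-181b-5p: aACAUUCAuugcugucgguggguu
mmu-miR-181c-5p: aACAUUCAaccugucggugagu
mmu-miR-181d-5p: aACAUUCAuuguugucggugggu
mmu-miR-146a-5p: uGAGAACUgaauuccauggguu
mmu-miR-146b-5p: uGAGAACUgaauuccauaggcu
mmu-miR-155-5p: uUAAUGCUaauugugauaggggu
mmu-miR-342-3p: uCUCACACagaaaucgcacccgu
mmu-miR-150-3p: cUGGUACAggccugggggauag

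Counted from the 5′ end, miR-181b-5p differs from miR-181a-5p by A9U, C10U and A21G and is 1 base longer, and miR-146b-5p differs from miR-146a-5p by G18A and U21C. miR-181a-5p is encoded on the plus strand at chr1:137966468-137966490 and at chr2:38852741-38852763. miR-181b-5p lies close to it at both loci, at chr1:137966650-137966673 and chr2:38853845-38853868. miR-342-3p lies at chr12:108658680-108658702 and miR-155-5p at chr16:84714143-84714165, both on the plus strand. miR-146a-5p lies on the minus strand at chr11:43374435-43374456.

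The signal of a miRNA is the intensity summed by Feature Extraction over its probes after background subtraction, and the software wrote 0.1 where it did not call the miRNA detected. To compare arrays, the 90th percentile over the 1881 miRNAs was made equal on all of them, which multiplied the 7 Gy signals by 4.33, 0.379, 4.63 and 0.756 (replicates 1 to 4) and the 0 Gy signals by 0.390 to 1.06. Detected miRNAs of all kinds numbered 379, 687, 378 and 567 at 7 Gy (replicates 1 to 4) and 531 to 603 at 0 Gy. The labelling spike-ins, control RNAs added before the Cy3 labelling, were out of the range of the software on 7 Gy replicates 1, 3 and 4, with a log10 signal of 1.95 to 2.31. They were in range on 7 Gy replicate 2 at 3.35 and on the 0 Gy arrays at 2.73 to 3.68. All arrays shared 1 slide, on which the columns held 1 group each and cannot be told apart from the dose, whereas both rows held both groups.

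Fewer detection calls of the lymphocyte miRNAs were made in irradiated sera. Of 24 pairs of a member and an array per group, 12 were called detected at 7 Gy and 23 at 0 Gy. In replicate order, 2, 5, 2 and 3 of the 6 members were detected per irradiated array, against 6, 6, 5 and 6 per non-irradiated array. The members miR-150-5p, miR-155-5p, miR-181a-5p and miR-146a-5p, 4 of 6, were detected on at least 2 fewer 7 Gy than 0 Gy arrays, as were 19.4% of the 804 miRNAs detected on any array. miR-181b-5p and miR-342-3p were detected on all 8 arrays. The 3 irradiated arrays with few members detected were the ones outside the labelling range, and the part of the labelling in this count was not tested.

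**Figure D1:**
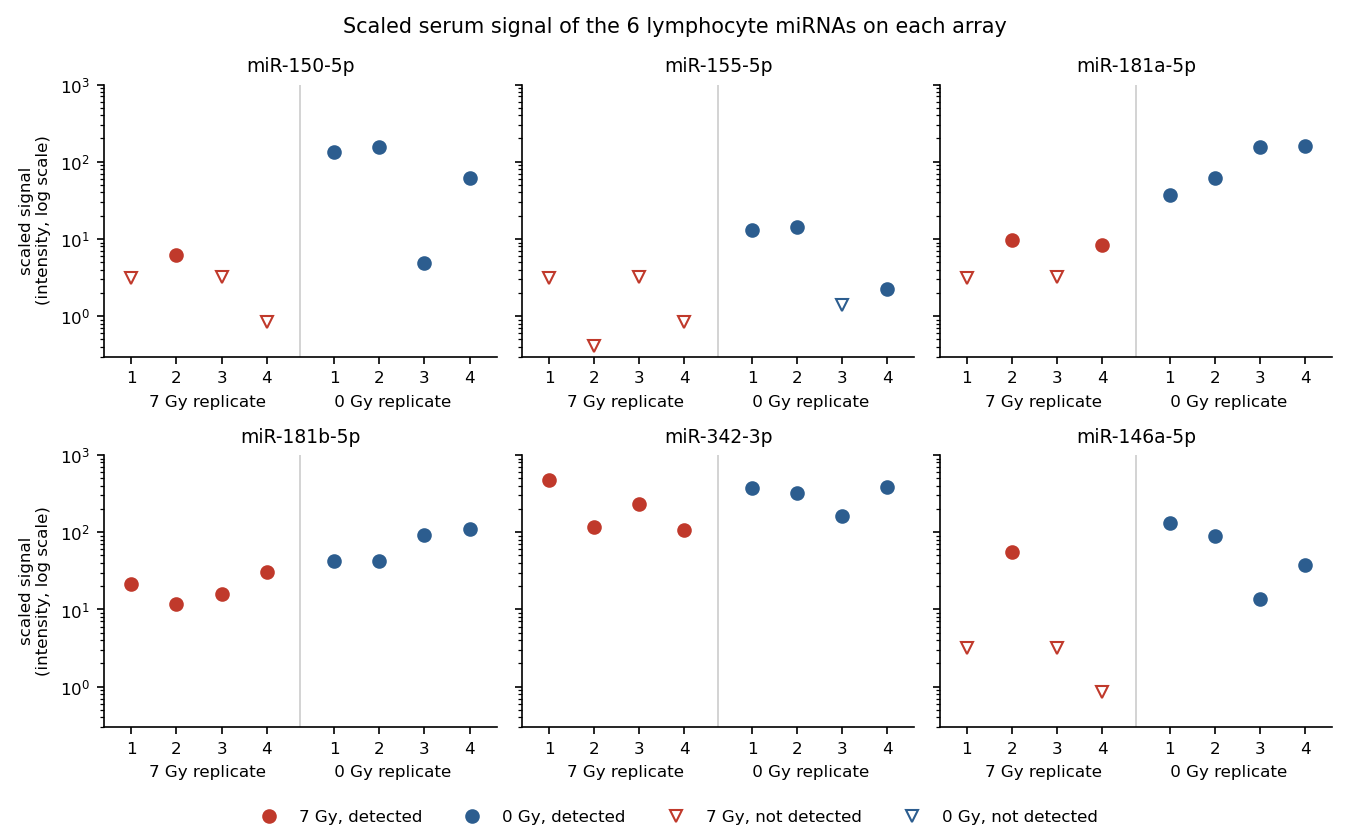
Scaled signal (intensity, log scale) of each of the 6 miRNAs on each array, with 7 Gy arrays in red and 0 Gy arrays in blue. Filled circles are detected signals, and open triangles stand at the lowest detected signal of an array on which the miRNA was not detected. The red symbols of miR-181a-5p and miR-181b-5p lie below all blue ones, whereas those of the other 4 miRNAs overlap them.

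miR-181a-5p, the thymocyte miRNA, had a scaled signal of 9.77 and 8.41 on 7 Gy replicates 2 and 4 and was not detected on 7 Gy replicates 1 and 3. At 0 Gy its scaled signal was 37.1, 61.6, 154.5 and 157.7 on replicates 1 to 4. Every irradiated array lay below every non-irradiated one, also before scaling, where the highest irradiated signal was 25.8 and the lowest non-irradiated one 95.1. miR-181b-5p, its partner from the same transcripts, had a scaled signal of 21.3, 11.8, 15.9 and 30.4 at 7 Gy, against 42.8, 42.4, 93.0 and 109.4 at 0 Gy, in replicate order. Its mean was 19.8 ± 8.04 at 7 Gy and 71.9 ± 34.5 at 0 Gy (SD, n = 4 each). Its groups did not overlap either, with unscaled signals of 3.43 to 40.2 at 7 Gy and 87.4 to 117.7 at 0 Gy. Groups that lay apart in this direction were seen for 2 of the 6 members and for 4.58% of the 633 miRNAs detected on at least 3 arrays. The separation depended on the scaling: with signals scaled to all spike-ins, the highest irradiated and the lowest non-irradiated signals were 39.1 and 28.5 for miR-181a-5p and 141.4 and 32.9 for miR-181b-5p, so that both pairs of groups overlapped. Scaled to the hybridization spike-ins alone, which were in range on all 8 arrays, the groups of miR-181a-5p lay apart (18.8 and 57.8) and those of miR-181b-5p met (65.9 and 64.1).

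miR-150-5p, the miRNA of mature lymphocytes, was detected on 1 irradiated array, 7 Gy replicate 2, with a scaled signal of 6.11. At 0 Gy its scaled signal was 134.6, 157.3, 4.96 and 61.5 on replicates 1 to 4. The groups overlapped because 0 Gy replicate 3 lay just under 7 Gy replicate 2. miR-155-5p, the activation-induced miRNA, was detected on no irradiated array. Its scaled signal was 13.1, 14.2 and 2.28 on 0 Gy replicates 1, 2 and 4, and it was not detected on 0 Gy replicate 3. Both groups therefore held arrays on which miR-155-5p was not told from background.

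miR-146a-5p, the NF-kappaB feedback miRNA, had a scaled signal of 54.7 on 7 Gy replicate 2 and was not detected on the other 3 irradiated arrays. The 0 Gy replicates 1 to 4 had 132.6, 88.3, 13.8 and 38.1. The single detected irradiated value lay among the non-irradiated ones, above 2 of them. miR-342-3p, the Evl intronic miRNA, had a scaled signal of 468.7, 115.5, 231.1 and 106.4 at 7 Gy, against 374.3, 318.3, 161.2 and 384.9 at 0 Gy, in replicate order. The mean of miR-342-3p was 230.4 ± 168.7 at 7 Gy and 309.7 ± 103.2 at 0 Gy (SD, n = 4 each). The groups overlapped, with the highest scaled value of all 8 on an irradiated array, 7 Gy replicate 1. Before scaling that array had 108.2, and the highest value was 959.8 on 0 Gy replicate 1. Unscaled signals were 49.9 to 305.1 at 7 Gy and 151.5 to 959.8 at 0 Gy, so that the groups overlapped there too.

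The signal of a miRNA is computed from its probes, so the probe values describe what lies below the detection call and are not separate support. Each member had 2 probes with 15 spots each on an array, so that 120 spots per group stood behind it. Spots well above background numbered 47 of 120 at 7 Gy and 120 of 120 at 0 Gy for miR-181a-5p, and 85 and 120 for miR-181b-5p. For miR-150-5p they numbered 19 at 7 Gy and 105 at 0 Gy, for miR-155-5p 1 and 61, and for miR-146a-5p 31 and 106. At 7 Gy all 19 of miR-150-5p and 30 of the 31 of miR-146a-5p were on replicate 2. Those of miR-181b-5p numbered 19, 30, 6 and 30 of 30 on 7 Gy replicates 1 to 4, so that its signal was weak on replicates 1 and 3. All spots of miR-342-3p were well above background in both groups.

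The brighter probe of miR-150-5p had a mean spot signal of 0.0078, 45.3, −0.099 and 0.43 at 7 Gy, and of 1007, 952, 17.1 and 177 at 0 Gy, in replicate order. Negative control spots set the level of no signal, and their mean was 1.10 to 1.97 and their 95th percentile 4.69 to 7.27 across the arrays. For miR-181a-5p the brighter probe had 3.65, 71.9, 3.13 and 29.4 at 7 Gy and 266.9, 362.4, 369.8 and 446.8 at 0 Gy. There were 13 cases of a member not detected on an array, with 26 probe means between −1.68 and 7.38. Of these 26 means, 2 lay above the 95th percentile of the negative controls, both from miR-155-5p on 7 Gy replicate 2, and 2 of the 390 spots were well above background. Spots of 1 array are not replicates of a mouse, and no test was made on them.

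**Figure D2:**
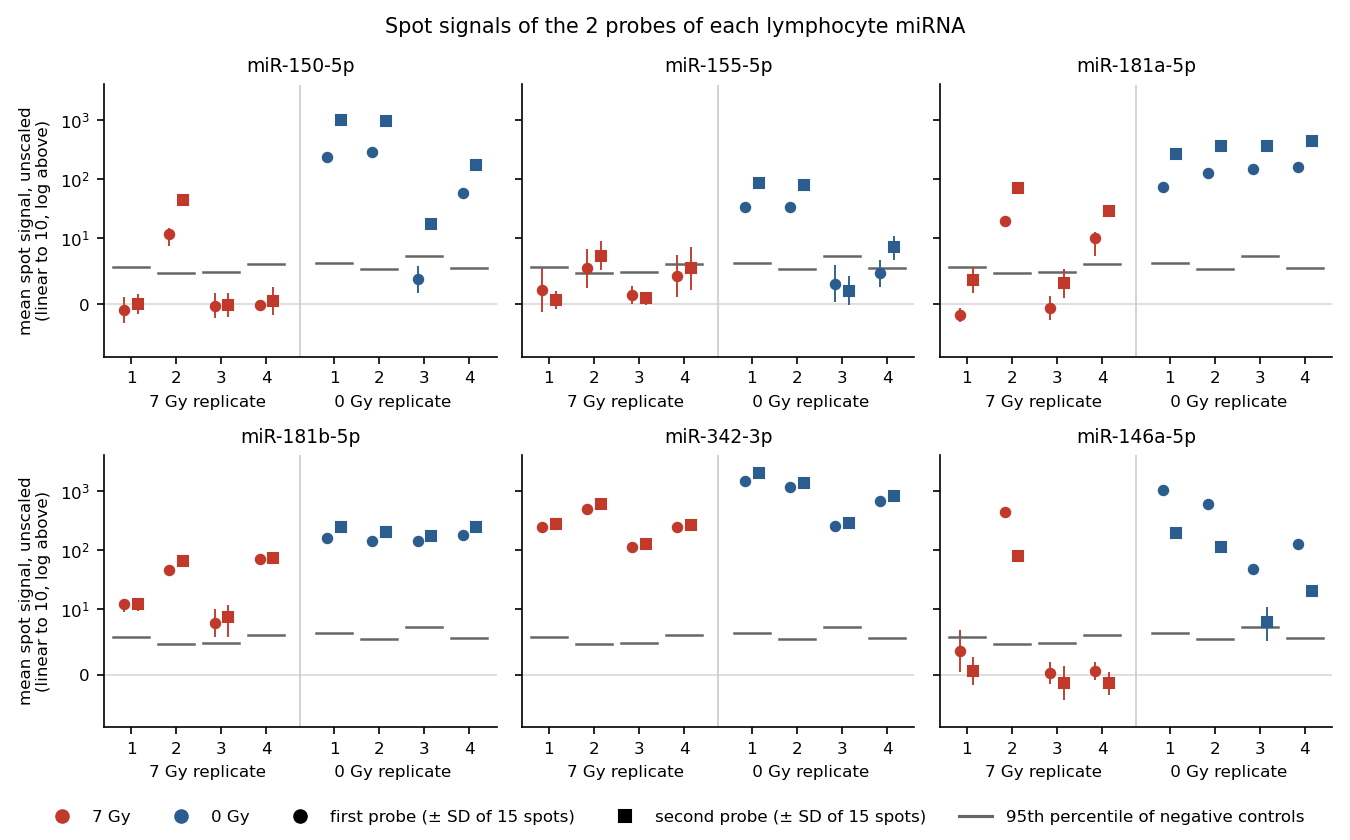
Mean signal of the 15 spots of each probe before scaling (linear up to 10 and logarithmic above), with 7 Gy arrays in red and 0 Gy arrays in blue. Circles and squares are the 2 probes of a miRNA, bars are the SD over spots, and grey lines are the 95th percentile of the negative control spots of the array. Both probes of a miRNA follow each other across the arrays, and those of miR-150-5p and miR-146a-5p sit near 0 on 7 Gy replicates 1, 3 and 4.

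The groups were compared with limma over all miRNAs in a pair of fits. With signals under 100 set to 100, as the lower cut-off of the methods was read, all irradiated arrays were at 100 for miR-150-5p, miR-181a-5p, miR-181b-5p and miR-146a-5p. Of the 24 pairs of member and array in each group, 4 reached 100 at 7 Gy, all from miR-342-3p, and 10 did at 0 Gy. Of the 6 members 5 could be tested and none was called, against 1.92% of the 208 miRNAs tested that were called lower (adjusted p under 0.05). None of the 5 passed at an unadjusted p under 0.05 in limma, against 16 lower and 46 higher of the 208 miRNAs. The log2 fold changes were −0.27 for miR-150-5p, −0.32 for miR-181a-5p, −0.03 for miR-181b-5p and −0.10 for miR-146a-5p, sizes that are bounded by the floor. miR-342-3p, which the floor did not touch, had −0.62 (standard error 0.54, adjusted p = 0.472). Scaled to all spike-ins instead, miR-181b-5p had 0.12 and miR-342-3p 0.058, both with the opposite sign. miR-155-5p was at the floor on all 8 arrays and was not tested.

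With no floor, and with the lowest detected signal of an array put in where a miRNA was not detected, all 6 members could be tested among 633 miRNAs. miR-181a-5p fell after irradiation by 16.1-fold, a log2 difference of −4.01 (standard error 0.71, adjusted p = 0.0397). It was 1 of the 6 members called, against 1.26% of the 633 called lower. On 2 of the 4 irradiated arrays its value was the lowest detected signal put in for it. The other 5 did not pass. miR-150-5p had −4.23 (standard error 1.08, adjusted p = 0.0675) and miR-146a-5p −3.43 (standard error 1.19, adjusted p = 0.113). For miR-181b-5p the value was −1.81 (standard error 0.60, adjusted p = 0.104), and for miR-342-3p it was −0.62 (standard error 0.65, adjusted p = 0.504). miR-155-5p had −1.86 (standard error 0.97, adjusted p = 0.222), with values put in on all 4 irradiated arrays and on 0 Gy replicate 3, so that no fold is given for it. At an unadjusted p under 0.05, 4 members were lower, against 11.2% of the miRNAs tested.

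All 6 values lay below 0, as did 203 of the 633 miRNAs. The median of the members was −2.65, whereas the median over the 633 miRNAs was 0.78. In the fit with the floor the medians were −0.27 for the 5 members and 0.17 for the 208 miRNAs. With no floor the median of all 633 miRNAs moved with the scaling. It was −0.48 with none, 0.38 with hybridization spike-ins, 1.46 with all spike-ins and 2.54 with labelling spike-ins alone. Beside these the members' median was −3.91, −3.05, −1.97 and −0.89. All 6 members lay below the median of all miRNAs in each of these scalings, and miR-342-3p was the exception that lay above 0 with all spike-ins (0.058) and with labelling spike-ins (1.14). miR-181a-5p was −3.34 with all spike-ins, −2.25 with labelling spike-ins and −4.42 with hybridization spike-ins, with adjusted p-values of 0.0880, 0.158 and 0.140.

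**Figure D3:**
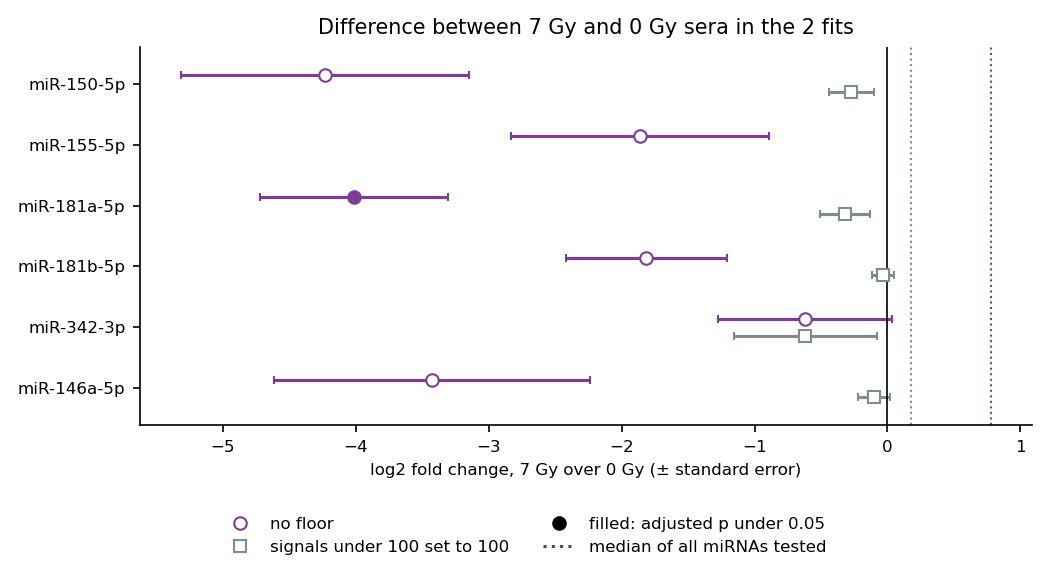
Log2 fold change (7 Gy over 0 Gy, ± standard error) of each miRNA in the fit with no floor (circles) and with signals under 100 set to 100 (squares), where miR-155-5p was not tested. Filled symbols have an adjusted p under 0.05, and dotted lines mark the median of all miRNAs tested in each fit. Only miR-181a-5p with no floor is filled, at −4.01.

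The call of miR-181a-5p depended on which arrays were used. Leaving out each array in turn moved its log2 fold change between −3.72 and −4.42, and the adjusted p between 0.0019 and 0.156. The call was kept without 7 Gy replicate 2 or 0 Gy replicate 3. It was lost without 7 Gy replicate 1 (adjusted p = 0.149), 3 (0.156) or 4 (0.0874), and without 0 Gy replicate 1 (0.0589), 2 (0.114) or 4 (0.0936). In each of the fits that lost it, with 583 to 632 miRNAs tested, no miRNA of any kind was called higher or lower. With the labelling spike-ins as a covariate no member was called, nor any other of the 633 miRNAs. In that fit miR-181a-5p had −4.01 (adjusted p = 0.177) and miR-181b-5p −2.53 (adjusted p = 0.204), whereas miR-150-5p had −2.0 (adjusted p = 0.453) and miR-155-5p −2.02 (adjusted p = 0.547). miR-342-3p had −0.57 (adjusted p = 0.774) and miR-146a-5p −0.18 (adjusted p = 0.936).

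Within each row of the slide, where replicates 1 and 2 of both groups shared row 1 and replicates 3 and 4 shared row 2, all 6 members were lower at 7 Gy with no floor. For miR-181a-5p the log2 difference was −3.11 in row 1 and −4.92 in row 2. It was −5.05 and −3.42 for miR-150-5p, −3.04 and −3.81 for miR-146a-5p, and −1.43 and −2.20 for miR-181b-5p. The differences were smaller for miR-342-3p, at −0.57 and −0.67. miR-155-5p had −3.59 in row 1 and −0.14 in row 2, where it was detected on 1 array. The −3.59 depends on the value put in on 7 Gy replicate 2, which was 1.08 before scaling. The probes of miR-155-5p had 1.52 and 2.08 on that array. Many of the irradiated values behind these differences were put in: both irradiated arrays of row 2 and 1 of row 1 for miR-150-5p and miR-146a-5p, 1 array of each row for miR-181a-5p, and all 4 for miR-155-5p. For these members the sizes, and any call with a block for the row, rest on the lowest detected signals of those arrays. miR-181b-5p and miR-342-3p had no value put in. When the row was taken as a block, miR-150-5p, miR-181a-5p, miR-181b-5p and miR-146a-5p were called lower, 4 of 6 against 8.37% of the 633 miRNAs, with adjusted p-values of 0.0137, 0.0130, 0.0371 and 0.0323.

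7 Gy replicate 2, the irradiated array with labelling spike-ins in range, was set beside the 4 non-irradiated arrays as a description. Of the 5 members detected on these 5 arrays, it lay below all 4 for miR-181a-5p, miR-181b-5p and miR-342-3p, which is 3 of 5, against 19.2% of the 442 miRNAs detected on the same arrays. Its log2 difference from the 0 Gy mean was −3.14 for miR-181a-5p, −2.48 for miR-181b-5p and −1.34 for miR-342-3p. miR-150-5p differed by −3.04, with 3 of the 4 non-irradiated arrays above it. For miR-146a-5p the difference was 0.14, above the 0 Gy mean. These values are scaled. Before scaling, 7 Gy replicate 2 lay above 0 Gy replicate 3 for miR-342-3p (305.1 against 151.5). It stayed below all 4 non-irradiated arrays for miR-181a-5p (25.8 against at least 95.1) and miR-181b-5p (31.0 against at least 87.4).

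The members also differed in their spread among the non-irradiated sera. Before scaling, the highest 0 Gy array was 74.8-fold above the lowest for miR-150-5p (348.4 against 4.66) and 26.3-fold for miR-146a-5p (340.1 against 12.9), and 0 Gy replicate 3 was the lowest in both. miR-155-5p was not detected on that array. In contrast, the highest 0 Gy array was 1.78-fold above the lowest for miR-181a-5p and 1.35-fold for miR-181b-5p. Over the 445 miRNAs detected on all 4 0 Gy arrays the median of this ratio was 2.23. After scaling the ratio was 31.7 for miR-150-5p and 9.63 for miR-146a-5p, while miR-181a-5p had 4.25 and miR-181b-5p 2.58, beside a median of 3.24, so that miR-181a-5p lay below the median of all miRNAs before scaling and above it after. Over the 8 arrays the Spearman correlation was 0.95 between miR-150-5p and miR-146a-5p, 0.83 between miR-181a-5p and miR-181b-5p, and 0.10 between miR-181a-5p and miR-342-3p. Between these pairs it was 0.71 for miR-150-5p and 0.59 for miR-146a-5p with miR-181a-5p, and 0.46 and 0.32 with miR-181b-5p. miR-155-5p had 0.89 with miR-150-5p, 0.78 with miR-146a-5p and 0.55 with miR-181a-5p. The arrays share their labelling and depth, so that these correlations are descriptions.

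The ratio of miR-181a-5p to miR-181b-5p on the same array was chosen after their values were seen. At 7 Gy it was 0.831 and 0.277 for replicates 2 and 4. For replicates 1 and 3 it was 0.147 and 0.20 with the lowest detected signal put in for miR-181a-5p. That signal is not an upper limit: on 7 Gy replicate 1 it was 0.725 before scaling, and the brighter probe of miR-181a-5p had 0.774. At 0 Gy the ratio was 0.867, 1.45, 1.66 and 1.44 in replicate order. With these values put in, all irradiated arrays lay below the non-irradiated ones, by little for 7 Gy replicate 2. The ratio does not depend on the scaling of an array.

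Other arms and paralogues of the members were read in the same way. miR-150-3p, which is cut from the same hairpin as miR-150-5p, was detected on all 8 arrays. Its scaled signal was 12.8, 4.15, 3.96 and 10.2 at 7 Gy, against 51.6, 69.4, 127.4 and 47.9 at 0 Gy, in replicate order. The groups lay apart at this scaling, and the log2 difference of miR-150-3p was −3.33 with no floor (standard error 0.64, adjusted p = 0.0397). The groups also lay apart before scaling (highest irradiated 13.5, lowest non-irradiated 51.5) and scaled to the hybridization spike-ins (22.1 and 43.2). The groups overlapped with signals scaled to all spike-ins (47.3 and 26.1) and to the labelling spike-ins (101.5 and 15.8). With the floor of 100, miR-150-3p had −0.09 (adjusted p = 0.616). Unlike miR-150-5p, it was not low on 0 Gy replicate 3, and its highest 0 Gy array was 2.98-fold above the lowest before scaling.

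The paralogues miR-181c-5p and miR-181d-5p, which share the seed of miR-181a-5p, were also lower on every irradiated array at the 90th-percentile scaling. miR-181d-5p was detected on 3 irradiated arrays at scaled signals of 6.77 to 13.9 and on all non-irradiated ones at 46.5 to 105.0. Its log2 difference was −3.08 with no floor (standard error 0.64, adjusted p = 0.0397). miR-181c-5p, with 12.7 to 28.8 on 3 irradiated arrays and 66.4 to 141.8 on the 4 non-irradiated ones, had −2.95 (standard error 0.76, adjusted p = 0.0675). Scaled to all spike-ins, the groups of miR-181d-5p overlapped (highest irradiated 57.4, lowest non-irradiated 42.7) and those of miR-181c-5p lay apart (58.9 and 61.0). Both overlapped with the labelling spike-ins as the scale, at 123.2 and 21.3 for miR-181d-5p and 126.3 and 34.6 for miR-181c-5p. Both lay apart before scaling, at 36.7 and 65.1 for miR-181d-5p and 76.1 and 133.3 for miR-181c-5p. With the hybridization spike-ins they also lay apart, at 26.8 and 57.4 for miR-181d-5p and 55.4 and 100.5 for miR-181c-5p. The calls of miR-150-3p and miR-181d-5p were kept without 7 Gy replicate 2 and lost without any 1 of the other 7 arrays, with log2 fold changes of −3.03 to −3.63 and −2.65 to −3.36 and adjusted p-values of at most 0.156 and 0.162. Among the fits that lost them, 7 of 616 miRNAs were called lower without 0 Gy replicate 3, and no miRNA was called in the rest. With all spike-ins as the scale miR-150-3p and miR-181d-5p had −2.65 and −2.40 (adjusted p = 0.197 and 0.213). Mature miR-181 miRNAs differ by few bases, as the sequences show, and how far their probes share signal was not tested. miR-146b-5p was detected on no irradiated and 2 non-irradiated arrays, at scaled signals of at most 3.96. Among the remaining 7 other arms, miR-181a-1-3p was detected on 1 irradiated and 2 non-irradiated arrays and miR-342-5p on 1 non-irradiated array, while miR-155-3p, miR-181a-2-3p, miR-181b-1-3p, miR-181b-2-3p and miR-146a-3p were detected on none.

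miRNAs of other blood cells also had values below 0, and their part in the differences was not tested. Of all 633 miRNAs tested with no floor, 203 had values below 0, 71 were lower at an unadjusted p under 0.05 and 8 were called lower. Of 4 leukocyte-wide and myeloid miRNAs (miR-142a-3p, miR-142a-5p, miR-223-3p and miR-21a-5p), all 4 had log2 fold changes below 0 with no floor and 2 were called, miR-142a-3p at −6.10 and miR-142a-5p at −4.19 (adjusted p = 0.0397 for each). Both calls were kept without 7 Gy replicate 2 or 0 Gy replicate 3 and lost without any other array, with adjusted p-values of at most 0.156. No miRNA of any kind was called in the fits that lost them. The summed scaled signal of these 4 miRNAs was 6.87 to 1889 at 7 Gy and 552.6 to 5685 at 0 Gy. Of 5 erythroid miRNAs (miR-451a, miR-144-3p, miR-486a-5p, miR-15a-5p and miR-16-5p), all 5 were below 0 and none was called, though 4 had an unadjusted p under 0.05, with sums of 7322 to 25820 at 7 Gy and 16485 to 82112 at 0 Gy. Of 4 platelet and endothelial miRNAs (miR-126a-3p, miR-126a-5p, miR-221-3p and miR-222-3p), all 4 were below 0 and none was called, 2 having an unadjusted p under 0.05, with sums of 123.9 to 578.4 at 7 Gy and 776.4 to 931.9 at 0 Gy. No defining marker was at 0 in both groups, and miR-142a-3p, miR-144-3p and miR-126a-3p were each not detected on 3 irradiated arrays.

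The members were also set beside miR-451a, the red cell miRNA. The unscaled signal of miR-451a in replicate order was 19.3, 39270, 7.11 and 14.03 in irradiated sera, against 172768, 86473, 2595 and 5993 in non-irradiated sera. Its ranks over the 8 arrays had a Spearman correlation of 0.93 with miR-150-5p, 0.98 with miR-146a-5p and 0.76 with miR-155-5p. With miR-181a-5p it was 0.54, with miR-342-3p 0.31 and with miR-181b-5p 0.29. No test was made of these descriptions.

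By the same Spearman correlation over the 8 arrays, with undetected values tied as lowest, the 3 miRNAs most like each member were as follows. miR-150-5p was most like miR-125b-5p and miR-340-5p (1.00 each) and miR-103-3p (0.975, with 8 miRNAs tied at that value). For miR-146a-5p they were let-7a-5p, let-7g-5p and let-7i-5p (1.00 each, with 9 tied), and for miR-155-5p let-7f-5p (0.930), miR-505-3p (0.901) and miR-125b-5p (0.894). miR-181a-5p was most like its paralogue miR-181d-5p (0.970), then miR-1843a-5p and miR-3968 (0.957 each). miR-181b-5p had miR-125b-1-3p (0.927), miR-99b-5p (0.922) and miR-222-3p (0.881) beside it. miR-342-3p had the loosest neighbours, miR-328-3p (0.833), miR-425-5p (0.786) and miR-1941-5p (0.738). Many of these ranks come from undetected values on the same irradiated arrays.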

How the data were processed

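Serum RNA (30 ng per array) of 4 mice at 7 Gy and 4 at 0 Gy was labelled with Cy3 by the authors and hybridised to 1 slide of 1-colour mouse miRNA arrays. The deposited intensity values come from Agilent Feature Extraction (version 11.5 in the labels and file headers, another in the methods), background-subtracted and not normalized between arrays, with a detection call per miRNA and spot signals deposited beside them. No spot was saturated. Precision is limited by having 4 arrays per group.

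From these, each array was scaled to the geometric mean of the 90th percentiles (35.6). Signals below 100 were raised to 100 before the log2 step, after the methods, which do not say whether 100 was a floor or a filter. miRNAs detected on at least 3 arrays and not at 100 on all 8 were tested with limma 3.58.1 (lmFit, eBayes; R 4.3.3), two-sided, with Benjamini-Hochberg adjustment over all miRNAs tested (208, or 633 with no floor) and a threshold of 0.05. The limma fit was tested on simulated normal values that lay clear of the floor of 100 and held no put-in values. The fit with no floor was not tested in this way. Replicates are separate serum samples per the labels. Both fits are unpaired.

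The members and lists were chosen with earlier results of these data known. Named miRNAs are the members, their other arms and paralogues, the marker lists and the 3 miRNAs most like each member. Sequences are from RefSeq (GRCm38.p6). Alternatives covered scaling, floor, signal, background (normexp, offset 50, on median spot signals), detection filter, array weights, prior, the methods' t-test at 1.5-fold, blocks and leaving out each array. Figures were drawn with matplotlib 3.10.9.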

Additional observations from a re-analysis of the deposited data

How the results depend on the processing

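With signals under 100 set to 100, no member was called higher under any setting. The count called lower, 0, became 1 with a floor of 10, a floor of 1 or no floor (miR-181a-5p, adjusted p = 0.0294, 0.0429 and 0.0397), with normexp background correction (miR-181a-5p, 0.0420) and with spot signals (miR-181b-5p, 0.0463). Over all miRNAs tested the count called lower, 4 of 208, was 19 of 513, 6 of 631, 8 of 633, 14 of 633 and 15 of 380 in these settings. The count of members stayed 0 with the replicate block, in which no miRNA of any kind was called and the log2 fold change of miR-181a-5p was −0.32. Sign changes came from scaling to spike-ins: miR-181b-5p had 0.12 with all spike-ins and 0.35 with labelling spike-ins alone, and miR-342-3p had 0.058 and 1.16. With no floor no member was called higher in the settings run, and the count called lower, 1, became 4 with a slide row block (miR-150-5p, miR-181a-5p, miR-181b-5p and miR-146a-5p), 3 with the replicate block (miR-150-5p, miR-181a-5p and miR-146a-5p, −4.23, −4.01 and −3.43) and 2 with the 75th or 90th percentile of miRNAs detected on all arrays (miR-181a-5p and miR-181b-5p). Over all 633 miRNAs the count called lower, 8, was 53, 55, 5 and 4 in these settings. The count of members called lower became 0 with no scaling and with scaling to all, labelling or hybridization spike-ins (miR-342-3p 0.058 and 1.14 with all and with labelling spike-ins). That count was also 0 with the labelling spike-in covariate and with only the arrays whose labelling spike-ins were in range, where miR-146a-5p had 0.14. Over all 633 miRNAs the count called lower was 16 with all spike-ins, 3 with labelling spike-ins and 0 in the rest of these settings. Leaving out each array gave counts of 0 to 3 members called lower. The 3 came without 7 Gy replicate 2, where 80 of 577 miRNAs were called lower and 109 higher (8 and 3 of 633 with all arrays). A count of 2 came without 0 Gy replicate 3, where 7 of 616 miRNAs were called lower. Where the count of members was 0, no miRNA of any kind was called. The cause of these changes was not tested, and the settings on labelling or hybridization spike-ins alone, on the arrays in range and all those combined with no floor were chosen after seeing the data. Same-numbered arrays had correlations of −0.34, 0.43, 0.55 and 0.42, so that the numbers were not taken as pairs, and not every array correlated best with its own number. Of 252 values of single members under other settings, 218 kept their direction and side of the threshold, 15 came to pass it, 12 no longer passed and 7 changed sign. The 218 do not measure stability, because some values could not change. With the floor of 100, miR-150-5p, miR-181a-5p, miR-181b-5p and miR-146a-5p were at 100 on all irradiated arrays. Leaving out an irradiated array thus returned the same log2 fold change for them. The looser detection filters also returned the same 208 miRNAs. miR-155-5p had no value in most fits with a floor, and signals near the negative controls limit what can be told of it.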
